A study of Mus musculus with 110 samples.

Results

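Translocation junctions between the immunoglobulin heavy chain (Igh) locus and the immunoglobulin kappa light chain (Igk) locus were examined in mouse pro-B cells. A junction was counted as an Igk junction when its prey lay on chromosome 6 between positions 67505630 and 70676751 of the mouse build mm9, a window of 3171122 bp. Of 3602400 junctions in 98 full libraries, 4701 were Igk junctions. Another 8308 junctions lay off chromosome 12, the chromosome of Igh, and outside this window, so 13009 junctions in all were interchromosomal.

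The libraries were made by linear-amplification translocation sequencing (LAM-HTGTS) from a bait at the JH4 segment of Igh, and every read spans a junction from this bait to its partner, the prey. The study asked how cohesin, which extrudes chromatin loops, and CTCF, which halts that extrusion, shape V(D)J recombination from this locus. The 98 libraries came from 13 groups with 56 replicates, most replicates with an a and a b library, which were summed.

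All lines were v-Abl transformed pro-B cells, carried Emu-Bcl2 and were RAG2 deficient. Each line was nucleofected with RAG2 and treated with the Abl kinase inhibitor STI-571 at 3 µM for 4 days. Each line was studied untreated (NT) or with the auxin IAA at 500 µM, begun 6 h ahead of STI-571 and kept on with it. IAA causes loss of a degron-tagged protein where the plant F-box protein OsTIR1 is present. The parental line had no further change, and the OsTIR1 control line carried the Ostir1 knock in. The CTCF tag control line carried CTCF-mAID-GFP tagging, and the degron lines were CTCFdegron, Rad21degron (Rad21 is a subunit of cohesin) and IGCR1deleted with Rad21degron. IGCR1 is a CTCF-bound control region between the VH and D segments of Igh. The remaining group was wild-type 129SV bone marrow pro-B cells sorted as B220+CD43+IgM-, which were not treated. The groups had 3 replicates per treatment for Rad21degron, 4 for the IGCR1-deleted line and for each of the parental, OsTIR1 and CTCF tag lines, 6 for CTCFdegron, and 6 for bone marrow. The labels do not say whether replicates were separate cultures or mice, or whether a line was 1 clone, so p-values measure the spread between these samples, which may be technical. For 4 libraries titled IAA the treatment label lacks IAA, and the title was followed. They are the a library of CTCFdegron replicate 4, both libraries of CTCFdegron replicate 5 and the library of IGCR1-deleted replicate 4.

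The Igk locus builds the kappa light chain of antibodies, usually after Igh has been assembled. RAG cuts at recombination signal sequences, each made of a conserved heptamer and nonamer with a spacer between them, and joins a signal with a 12-base spacer to one with a 23-base spacer. Vκ segments carry the short spacer and Jκ segments the long one, and JH segments of Igh carry a long one as well. Each cut leaves a coding end, which is trimmed and filled before joining, and a signal end, which is normally joined with little trimming.

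The window holds 99 annotated Vκ segments, 38 on the plus and 61 on the minus strand, and 5 annotated Jκ segments, all on the plus strand. It was divided 1000 bp before the first Jκ segment into a V side of 3165926 bp and a J side of 5196 bp. The Jκ signals are shown first because 42.9% of the Igk junctions fell on that short J side. They are given in mm9, read 5′ to 3′ outward from the last bases of the coding end, on the minus strand, with heptamer and nonamer in capitals.
Igkj1, chr6:70672511-70672567: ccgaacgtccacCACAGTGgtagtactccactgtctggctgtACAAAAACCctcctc
Igkj2, chr6:70672865-70672921: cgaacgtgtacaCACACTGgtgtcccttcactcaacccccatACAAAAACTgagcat
Igkj3, chr6:70673172-70673228: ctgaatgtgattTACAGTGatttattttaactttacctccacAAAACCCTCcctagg
Igkj4, chr6:70673497-70673553: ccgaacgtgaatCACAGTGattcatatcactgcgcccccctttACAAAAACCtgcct
Igkj5, chr6:70673835-70673891: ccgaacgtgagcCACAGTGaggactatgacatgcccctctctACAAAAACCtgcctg
The heptamers of Igkj1, Igkj4 and Igkj5 matched the consensus CACAGTG at 7 of 7 bases, and their nonamers matched ACAAAAACC at 9 of 9. Igkj2 matched at 6 heptamer and 8 nonamer bases. Igkj3 matched at 6 heptamer and 4 nonamer bases, and it had 9 junctions against 423 to 600 at each of the other Jκ segments. The best nonamer of Igkj4 began after 24 bases of spacer, and those of the other 4 after 23.

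Signals of 3 of the Vκ segments with the most junctions, of the largest cluster of junctions away from any annotated segment and of a site in the intron between Jκ and Cκ are shown the same way, on the strand of the Vκ segment.
Igkv4-73, chr6:69147547-69147588, minus strand: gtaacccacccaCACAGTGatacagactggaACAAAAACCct
Igkv14-111, chr6:68206852-68206893, plus strand: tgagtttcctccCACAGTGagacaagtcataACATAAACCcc
Igkv4-50, chr6:69650731-69650772, minus strand: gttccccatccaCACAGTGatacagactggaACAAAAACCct
unannotated cluster, chr6:69060868-69060909, minus strand: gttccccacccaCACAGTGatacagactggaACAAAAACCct
intron signal, chr6:70674996-70675053, plus strand: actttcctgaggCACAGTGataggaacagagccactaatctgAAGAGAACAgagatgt
The 4 signals of the V side have a 12-base spacer. CACAGTG, searched on the strand of the segment, stood within 15 bases outside the recombining end of 83 of the 99 Vκ segments (83.8%), against 0.0894% of all 15-base windows of the locus on the plus strand. It stood directly at the end of 75 of them.

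Reads at the junction show both facings that the rest of the text uses. A junction faces coding when the prey reads from the recombining end into the segment, and it faces signal when the prey reads outward through the heptamer. Each line below has 20 bases of bait, the inserted bases in capitals and 25 bases of prey, as sequenced.
Igkj1, coding facing, from position 70672559: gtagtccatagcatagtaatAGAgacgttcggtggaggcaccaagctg
Igkj4, coding facing, from position 70673542: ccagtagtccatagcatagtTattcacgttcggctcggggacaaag
Igkj5, signal facing, from position 70673879: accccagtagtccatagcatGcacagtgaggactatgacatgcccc
Igkv1-135, coding facing, from position 67560500: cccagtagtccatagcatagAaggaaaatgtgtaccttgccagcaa
The read at Igkj5 begins its prey with the intact heptamer that is printed above for that segment. The prey of 4673 junctions could be set base by base against mm9, with a mean identity of 99.7%, and 98.6% of them reached 95%. The other 28 had gaps in the alignment.

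The V side held 2683 of the 4701 Igk junctions (57.1%) and the J side 2018 (42.9%). On the V side, 2225 junctions (82.9%) lay within 100 bp of an annotated Vκ segment, and on the J side 1962 (97.2%) lay within 100 bp of a Jκ segment. Of all Igk junctions 3666 (78.0%) were within 10 bases of a recombining end. In the 10 groups with at least 50 Igk junctions this share was between 72.1% and 84.4%, so junctions at recombining ends prevailed in each of these groups. Igk junctions were spread over 1249 combinations of position and orientation, of which 629 were seen once.

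Plus-orientation junctions, whose prey reads toward higher coordinates, made up 2937 of the 4701 (62.5%). The orientation went with the strand of the Vκ segment. At Vκ segments of the minus strand, whose recombining end points to lower coordinates, 1440 junctions were plus and 144 minus. At Vκ segments of the plus strand, 74 were plus and 567 minus. Both sets read into the coding segment, at 90.9% for the minus strand and 88.5% for the plus strand. The V side as a whole therefore held 1881 plus and 802 minus junctions, and coding-facing junctions were 2007 of the 2225 at Vκ segments (90.2%). The share was between 83.2% and 98.2% in the 10 larger groups, lowest in untreated OsTIR1 cells and highest in IAA-treated CTCFdegron cells.

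**Figure D1:**
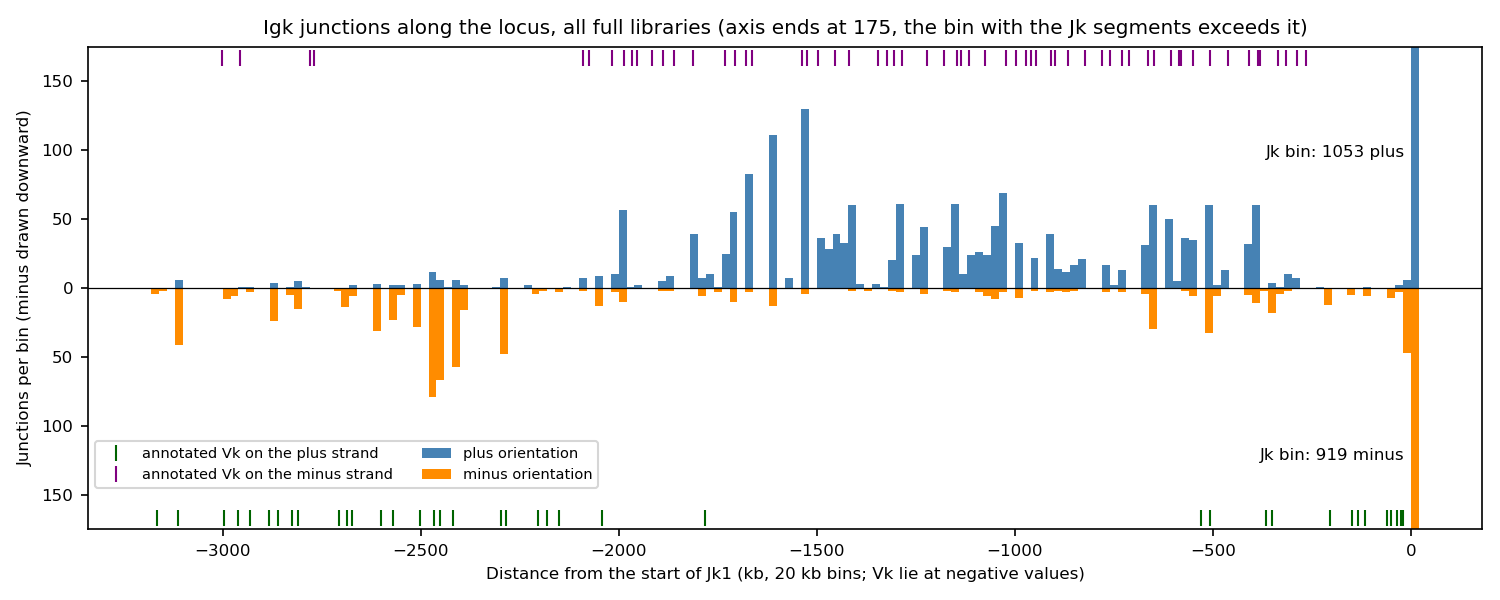
Igk junctions of all full libraries in 20 kb bins by distance from the start of Igkj1 (kb), plus orientation drawn upward and minus orientation downward, with the annotated Vκ segments of each strand as ticks. Plus junctions prevailed over the stretch of minus-strand Vκ segments and minus junctions over the plus-strand Vκ segments, and the bin with the Jκ segments held 1053 plus and 919 minus junctions.

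The J side differed from the V side in its facing. Its 1056 plus junctions and 962 minus junctions were nearly balanced (52.3% plus), and at the Jκ segments 1035 faced coding and 927 faced signal (52.8% coding). In the 10 larger groups the coding share of Jκ junctions was between 47.2% and 59.6%, below the V side share in each of these groups. Coding-facing junctions at Jκ segments had lost a median of 2 coding bases, and 839 of 1035 (81.1%) had lost 0 to 5. At Vκ segments the median was 3 bases, and 1476 of 2007 (73.5%) had lost 0 to 5. Signal-facing junctions lay 1 to 7 bases outside the Jκ end, inside the heptamer, in 743 of 927 (80.1%), and 203 began at its first base. At Vκ segments 101 of 218 signal-facing junctions (46.3%) lay in that stretch and 13 began at its first base.

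**Figure D2:**
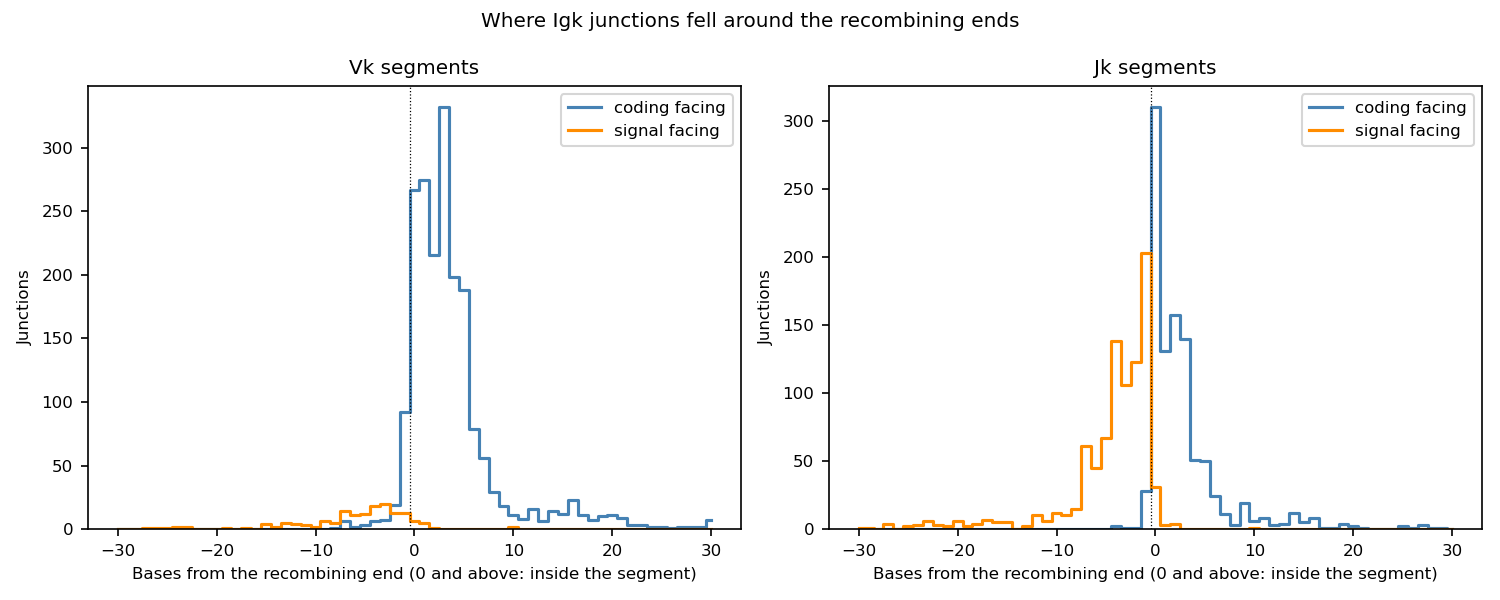
Junctions by distance from the recombining end (bases, with 0 the first base of the segment) for Vκ segments on the left and Jκ segments on the right. Coding-facing junctions peaked at 3 bases lost for Vκ (332 junctions) and at no loss for Jκ (310 junctions), and signal-facing junctions peaked at the first base outside the Jκ end (203 junctions).

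Among the Jκ segments, which supply the last residues of the variable domain and of which Igkj3 is known as non-functional, Igkj4 had 600 junctions, Igkj2 494, Igkj1 436, Igkj5 423 and Igkj3 9. Pooled over all groups, Igkj4 thus had the most and Igkj3, whose signal departs most from the consensus, the fewest. Igkj2 led in untreated OsTIR1 cells, with 67 against 46 at Igkj4, and in untreated CTCFdegron cells, with 48 against 30. In IAA-treated CTCFdegron cells Igkj5 had 30 and Igkj4 29. Every segment had its own balance of facings. Igkj1 (chr6:70672556-70672593) had 386 coding-facing and 50 signal-facing junctions, or 88.5% coding. Igkj2 (chr6:70672910-70672952) had 202 coding-facing and 292 signal-facing junctions, or 40.9% coding. Igkj4 (chr6:70673542-70673579) had 406 and 194, or 67.7% coding. These 3 segments thus ran from mainly coding to mainly signal without following their order on the chromosome. Igkj5 (chr6:70673880-70673921), the segment nearest to Cκ, had 32 coding-facing and 391 signal-facing junctions, or 7.57% coding. The 9 junctions of Igkj3 (chr6:70673217-70673252) all read into the coding side, and their median lay 114 bases from its end, so they were not at that end.

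Igkj1 and Igkj4 had a coding majority and Igkj5 a signal majority in each of the 10 larger groups. Igkj2 had a coding majority in 3 of them, at 60.7% in IAA-treated OsTIR1 cells, 71.4% in untreated Rad21degron cells and 55.6% in the untreated IGCR1-deleted line, and a signal majority in the other 7. In the 10 larger groups the coding share was between 77.5% and 100.0% for Igkj1, between 32.1% and 71.4% for Igkj2, between 59.5% and 75.3% for Igkj4 and between 0.0% and 18.3% for Igkj5. These group ranges of Igkj1 and Igkj5 did not meet those of any other segment with signal-facing junctions. The ranges of single replicates with at least 10 junctions at the segment did overlap. They were 70.0% to 100.0% for Igkj1 and 36.4% to 100.0% for Igkj4, and 0.0% to 30.0% for Igkj5 and 5.56% to 66.7% for Igkj2. In single replicates with at least 10 junctions at the segment, coding-facing junctions were the majority in 17 of 17 for Igkj1 and in none of 16 for Igkj5. Igkj4 had a coding majority in 22 of 25 replicates and Igkj2 in 3 of 20.

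**Figure D3:**
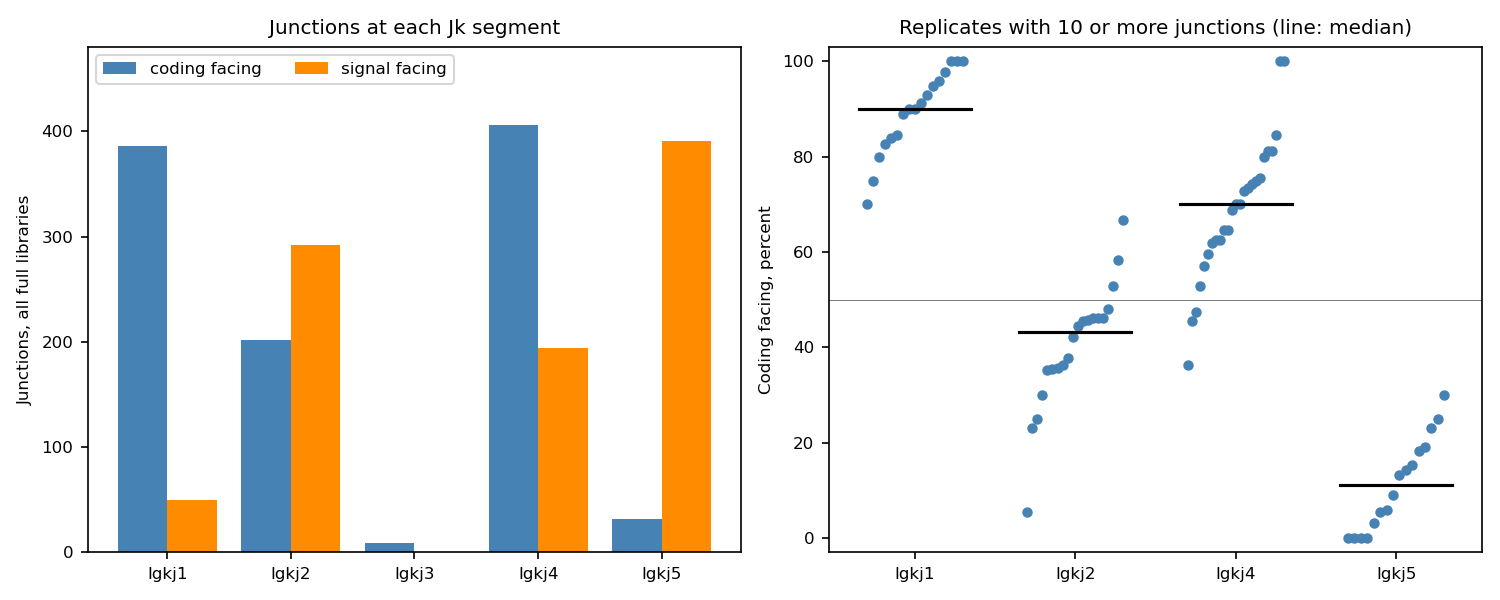
Junctions at each Jκ segment by facing over all full libraries (left), and the coding-facing share in percent in each replicate with 10 or more junctions at that segment, with the median as a line (right). The medians were 90.0% for Igkj1, 43.3% for Igkj2, 70.0% for Igkj4 and 11.2% for Igkj5.

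Single positions repeated these preferences. In the 10 larger groups, weighted equally, the most frequent positions were the first base of Igkj1 in plus orientation (70672556, 139 junctions over all groups, a mean of 3.03% of Igk junctions) and the first base of Igkj4 in plus orientation (70673542, 150 junctions, 2.97%). The next was the last base before Igkj5 in minus orientation (70673879, 110 junctions, 2.17%). The fourth was the third base of Igkj1 in plus orientation (70672558, 87 junctions), and the other 6 of the first 10 all lay at Igkj2, Igkj4 or Igkj5. The ranking over all 13 groups gave weight to groups with few junctions. It placed 70673535 (9 junctions) and 68811476 (1 junction) among its first 3 positions, and the restriction to larger groups was made after these values were seen.

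Junctions at Vκ segments were spread widely. Of the 99 annotated Vκ segments, 89 had a junction and 55 had at least 10, and the 10 with the most held 741 of 2225 junctions (33.3%). The segment with the most was Igkv4-73 (chr6:69147579-69148110, minus strand), with 96 junctions in 33 replicates, 92 of them coding facing. Igkv14-111 (chr6:68206398-68206863, plus strand) had 91 junctions in 33 replicates, 79 of them coding facing. Both were found in all 10 larger groups, at 1.20% to 3.06% and at 1.13% to 3.57% of a group's Igk junctions. Igkv6-32 (chr6:70024018-70024578, minus strand) had 86 junctions, and its 26 signal-facing junctions made its coding share of 69.8% the lowest among the named Vκ segments. The named segments were chosen by their share averaged over the 13 groups, not by count. Igkv4-50 and Igkv1-110 had 72 each, Igkv8-24 66, Igkv4-68 62, Igkv2-109 57, Igkv1-135 47 and Igkv16-104 45. These 7 had coding shares between 86.4% for Igkv8-24 and 96.8% for Igkv4-68. Igkv1-135, the farthest of them from Jκ at 3112 kb, headed the mean over all 13 groups at 2.25%, through 4 reads of 1 junction in a replicate with 5 Igk junctions. It came in position 17 in the larger groups. Igkv2-109 and Igkv16-104 came in positions 7 and 8 over all groups and 12 and 14 in the larger ones. Segments not named here had more junctions than some of those named, among them Igkv4-80 and Igkv19-93 with 65 each and Igkv4-59 and Igkv4-57 with 64 each.

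The Igkv4 family, the largest with 24 annotated segments (24.2% of all), held 853 of the 2225 junctions (38.3%). Igkv8, with 9 segments, held 283. Igkv3, with 8 segments, held 39, and Igkv9, with 4, held 9. Family size and junctions thus did not go together for Igkv3 and Igkv9. With the V side cut into 3 equal stretches of 1.06 Mb, the one farthest from Jκ held 566 junctions and 27 annotated segments, the middle 1198 and 31, and the nearest 919 and 41. These junction counts include those away from annotated segments, so they do not give junctions per annotated segment. The 10 larger groups had between 15.4% and 32.6% of their V side junctions in the far stretch and between 35.2% and 56.0% in the middle one.

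Away from annotated segments, 362 of 458 V side junctions fell into 10 clusters of at least 10 junctions. All 10 clusters had CACAGTG within 20 bases of their most frequent position. The largest held 124 junctions from 10 groups, 111 of them plus, with its most frequent position at 69060903, and its signal is printed above. Its heptamer, spacer and nonamer are the same bases as in Igkv4-50, in Igkv4-73 and at the cluster with its most frequent position at 69233791. The clusters were looked for in the mm9 gene annotation used here, and whether another annotation holds a Vκ segment at them was not tested. Between Igkj5 and the Cκ gene there was a single CACAGTG, at 70675008, and 34 of the 39 junctions in that stretch lay within 20 bases of it, 11 plus and 23 minus, in 10 groups. It is the intron signal printed above, with a spacer of 23 bases and 5 of 9 nonamer bases matching. Another 30 junctions, which are not Igk junctions by the window, lay within 40 bases of a CACTGTG that begins 25 kb after its end.

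Inserted bases set Igk junctions apart from other interchromosomal junctions of the same libraries. Of the 4701 Igk junctions, 71.1% had inserted bases between bait and prey, 10.9% were blunt and 18.0% had bases that matched both sides. The median was 2 inserted bases. For the 8308 other junctions off chromosome 12 in all groups, 24.5% had inserted bases and 69.5% had an overlap, with a median overlap of 3 bases. In single replicates of the 10 larger groups the inserted share of Igk junctions had a lowest value of 28.6%, a median of 76.5% and a highest of 89.7%. The share of the other junctions ran from 9.47% through 28.2% to 78.4%, and it was below that of Igk in 43 of 43 replicates. Bone marrow replicate 4 was not among these, and 88.9% of its 54 other junctions had inserted bases. No test was run, since the measure was chosen after its values were seen. By facing, the inserted share was 72.9% (coding) and 72.5% (signal) at Vκ and 68.5% and 72.0% at Jκ.

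The inserted share also differed between replicates of different sequencing runs, and between lines within a run. Replicates 3 and 4 of the parental and OsTIR1 lines, 8 replicates from 1 run, had inserted bases in 58.4% to 68.2% (parental) and 28.6% to 39.5% (OsTIR1) of Igk junctions. Replicates 1 and 2 of the same lines, from 2 other runs, had 66.7% to 89.7% and 65.5% to 82.4%. In the OsTIR1 line the 2 sets did not overlap, in either treatment. In the parental line they overlapped when treatments were pooled. Within the run of replicates 3 and 4 the 2 lines did not overlap. The part of the run in these differences was not tested.

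Depth and composition differed between groups, which bears on every share that follows. Replicates of the lines had 14866 to 231023 junctions without IAA, apart from 5329 to 15327 in the IGCR1-deleted line, and IAA-treated degron replicates had 1263 to 2492 (Rad21degron), 1608 to 2668 (IGCR1deleted) and 21416 to 35133 (CTCFdegron). Interchromosomal junctions were 9.66% to 22.8% of all junctions in IAA-treated Rad21degron replicates and 7.05% to 12.8% in the IGCR1-deleted line with IAA. Elsewhere they were 0.0578% to 1.78%. A share of all junctions and a share of interchromosomal junctions therefore weigh Igk against very different denominators, and both are given. Over the 4 measures, 30 comparisons were tested with two-sided exact permutation tests of the replicate means, and none had a Benjamini-Hochberg adjusted p under 0.05, while 6 had an unadjusted p under it.

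**Figure D4:**
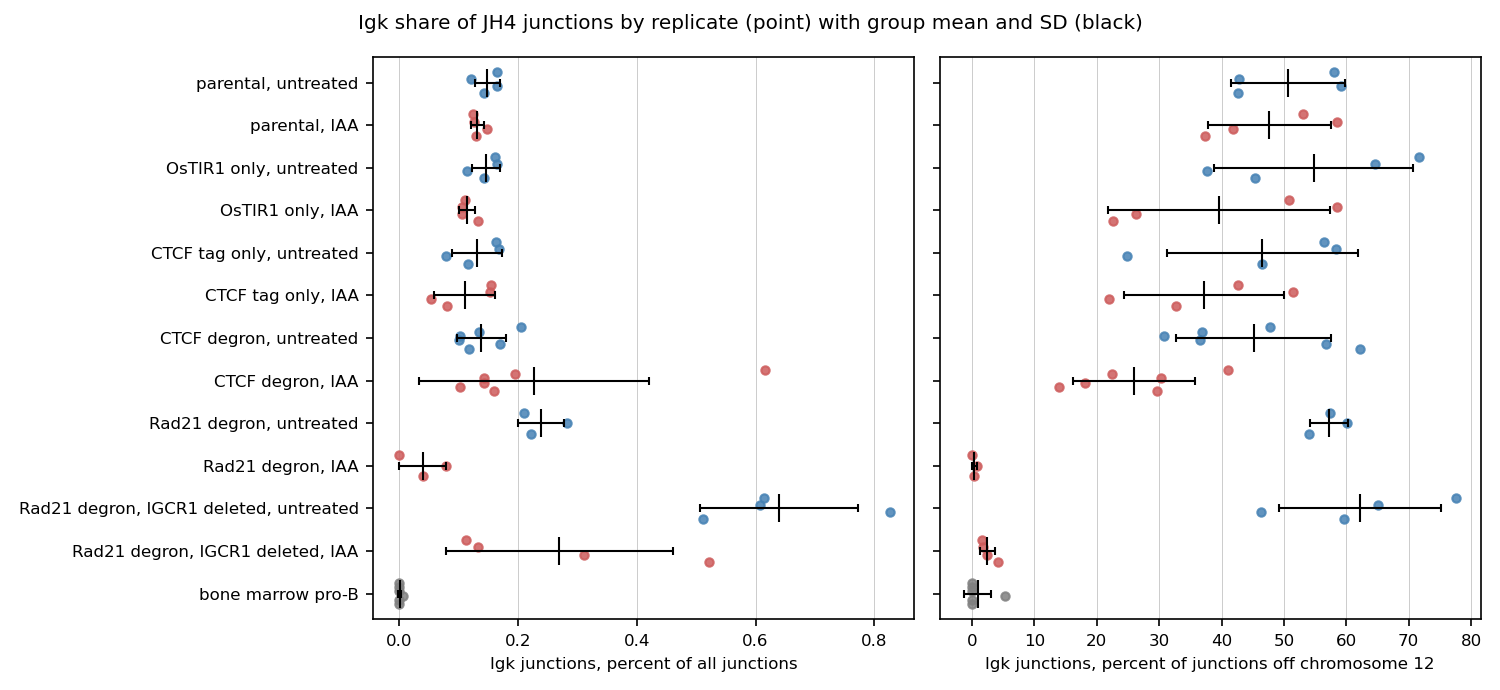
Igk junctions in percent of all junctions (left) and of junctions off chromosome 12 (right), with 1 point per replicate and the group mean and SD in black. On the right, the IAA-treated Rad21 degron lines and bone marrow lie at or below 5.26%, and every other replicate lies at or above 14.0%.

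In untreated parental cells the Igk share of all junctions was 0.165%, 0.121%, 0.165% and 0.143% in replicates 1 to 4, a mean of 0.148% ± 0.0211 (SD, n = 4). With IAA it was 0.125%, 0.126%, 0.148% and 0.130%, a mean of 0.132% ± 0.0107 (SD, n = 4). The treatments overlapped (exact permutation test, p = 0.257, adjusted p = 0.454). Untreated OsTIR1 cells had 0.161%, 0.166%, 0.115% and 0.144%, and IAA-treated ones 0.112%, 0.106%, 0.107% and 0.133%, so 3 of the 4 treated replicates lay below all untreated ones. The means were 0.146% ± 0.0231 and 0.114% ± 0.0130 (exact permutation test, p = 0.0571, adjusted p = 0.214, with 0.0286 the smallest possible for 4 against 4). In the CTCF tag line, untreated replicates had 0.163%, 0.169%, 0.0787% and 0.116% and treated ones 0.156%, 0.154%, 0.0543% and 0.0802%, which overlapped (exact permutation test, p = 0.543, adjusted p = 0.679). Among interchromosomal junctions, the Igk share was 42.6% to 59.1% in untreated parental replicates, 37.6% to 71.6% in untreated OsTIR1 replicates and 24.9% to 58.4% in untreated CTCF tag replicates. With IAA it was 37.3% to 58.5%, 22.5% to 58.5% and 21.9% to 51.5%, and the treatments overlapped in all 3 lines. The mean was lower with IAA in each, with differences of -3.0 percentage points in the parental, -15.2 in the OsTIR1 and -9.35 in the CTCF tag line (exact permutation tests, adjusted p = 0.679, 0.454 and 0.557). These comparisons pool sequencing runs in the parental and OsTIR1 lines. Within each of the 2 OsTIR1 runs the treatments did not overlap, at -13.4 and -17.0 percentage points. Nor did they in the 1 run with both parental treatments, at -11.3. Each of these runs had 2 replicates per treatment. The CTCF tag line came from 1 run. In the OsTIR1 line both Igk shares were lower with IAA in 4 of 4 same-numbered pairs (exact sign-flip test, p = 0.125, the smallest that 4 pairs allow). Whether equal replicate numbers mean paired samples is not known. Means of the 6 control groups were between 37.2% and 54.7%, from a window of 3.17 Mb set against 2530.5 Mb of other genome.

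The widest gaps between treatments were in the Rad21degron lines. Untreated Rad21degron replicates had 98, 71 and 93 Igk junctions, and IAA-treated replicates had 0, 1 and 1. As a share of interchromosomal junctions this was 57.3%, 60.2% and 54.1% untreated against 0.0%, 0.820% and 0.321% with IAA, although the treated replicates held 413, 122 and 312 such junctions. Every treated replicate lay below every untreated one. The means were 57.2% ± 3.05 and 0.380% ± 0.413 (SD, n = 3 each), at least 41.4-fold lower when each treated replicate is set at no less than 3 counts (exact permutation test, p = 0.100, the smallest that 3 against 3 allows, adjusted p = 0.273). The difference had the same direction within each of the 3 runs that held both treatments, at -57.3, -59.3 and -53.7 percentage points. As a share of all junctions, untreated replicates had 0.211%, 0.283% and 0.222%, and treated ones 0.0%, 0.0792% and 0.0401%, which also did not overlap (means 0.239% ± 0.0392 and 0.0398% ± 0.0396, exact permutation test, p = 0.100, adjusted p = 0.273). With 3 counts as the floor this was at least 1.37-fold lower. Without the floor the mean was 6.00-fold lower as a share of all junctions and 150-fold lower as a share of interchromosomal junctions. Other interchromosomal junctions were a mean of 0.178% of all junctions untreated and 15.0% with IAA. The larger fold thus holds the change in these other junctions as well as that in Igk. The treated Igk junctions were 1 signal-facing junction at Igkj4 and 1 at 68811476, away from any annotated segment.

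In the IGCR1-deleted Rad21degron line, untreated replicates had 83, 93, 44 and 74 Igk junctions, and IAA-treated replicates 3, 3, 5 and 10. Igk made up 77.6%, 65.0%, 46.3% and 59.7% of interchromosomal junctions untreated and 1.60%, 1.68%, 2.43% and 4.15% with IAA. The groups did not overlap. The means were 62.1% ± 12.9 and 2.46% ± 1.19 (SD, n = 4 each), a 25.2-fold difference (exact permutation test, p = 0.0286, the smallest possible, adjusted p = 0.143). Other interchromosomal junctions were a mean of 0.452% of all junctions untreated and 9.84% with IAA, and this fold holds that change as well. As a share of all junctions, Igk made up 0.614%, 0.607%, 0.826% and 0.512% in untreated replicates and 0.112%, 0.134%, 0.311% and 0.522% in treated ones. Treated replicate 4 overlapped the untreated range (means 0.640% ± 0.133 and 0.270% ± 0.190, a 2.37-fold difference, exact permutation test, p = 0.0571, adjusted p = 0.214). This replicate is the one whose treatment label lacks IAA. Without it the difference in the share of all junctions was -0.454 instead of -0.370 percentage points (exact permutation test, p = 0.0286, adjusted p = 0.122). The difference in the share of interchromosomal junctions was -60.2 instead of -59.7 (exact permutation test, p = 0.0286, adjusted p = 0.143).

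Several of these reads repeated single junctions. Of the 10 reads in treated replicate 4, 8 carried 1 junction at Igkj4, signal facing from position 70673539 with 4 inserted bases.
Igkj4, 8 reads of 1 replicate: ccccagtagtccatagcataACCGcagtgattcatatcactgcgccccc
The 8 reads had 8 different prey ends, and 4 reads of the same junction were present in untreated replicate 4, of the same run. In treated replicate 3, 4 of 5 reads carried 1 junction at Igkv1-135. With reads of the same position, orientation, bait end and inserted bases counted once, treated replicates had 3, 3, 2 and 3 Igk junctions, or 0.251%, 0.274%, 0.319% and 0.286% of all junctions. Untreated ones then had 75, 82, 33 and 66, or 0.700%, 0.689%, 0.875% and 0.590%. The groups then did not overlap (difference -0.431 percentage points, exact permutation test, p = 0.0286, adjusted p = 0.107). This way of counting was chosen after the data were seen. Among the treated junctions, the prey at 70673953 in replicate 3 matched mm9 at 83.33% of bases. The prey at 70672566 in replicate 4 matched at 81.97%. Both lie under the 95% mark used above, so their place in Igk is less certain. The shares without these junctions were not tested. Counting identical junctions once, which also requires the same prey end, gave -0.456 percentage points (exact permutation test, p = 0.0571, adjusted p = 0.214). In groups with at least 50 Igk junctions no junction had more than 6 reads in a replicate. Over all replicates 4701 reads came to 3970 such junctions, and of the 3969 in replicates with lettered libraries 1 was found in both the a and the b library. The 3969 include 256 untreated and 11 treated junctions of the IGCR1-deleted line, which had b libraries only and so could not be found in both.

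Deletion of IGCR1 went with a higher Igk share of all junctions in untreated Rad21degron cells. The 4 replicates with the deletion, at 0.512% to 0.826%, all lay above the 3 without it, at 0.211% to 0.283%. The difference was 0.401 percentage points, or 2.68-fold (exact permutation test, p = 0.0286, the smallest possible, adjusted p = 0.143). Among interchromosomal junctions the lines overlapped, at 62.1% ± 12.9 (n = 4) and 57.2% ± 3.05 (n = 3) (exact permutation test, p = 0.657, adjusted p = 0.741). Interchromosomal junctions as a whole were 0.792% to 1.78% of all junctions with the deletion and 0.368% to 0.471% without. The J side share was 25.6% ± 6.64 with the deletion and 34.8% ± 6.73 without, and the plus share 72.9% ± 6.16 and 63.7% ± 0.691 (exact permutation tests, p = 0.171 and 0.0857, adjusted p = 0.367 and 0.273). The J side values overlapped and the plus values did not. With b libraries only in both lines, the J side difference was -13.7 percentage points and the plus difference 9.54 (exact permutation tests, p = 0.0286 and 0.143, adjusted p = 0.122 and 0.306). The 2 lines shared no sequencing run, and only b libraries were used for the line with the deletion, so line and run cannot be told apart here.

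In the CTCFdegron line, Igk junctions were 0.102% at the lowest, 0.126% at the median and 0.205% at the highest of 6 untreated replicates. With IAA the values were 0.102%, 0.152% and 0.616%. The highest, replicate 1, had 132 Igk junctions and stood apart from the other 5, which ended at 0.196% (means 0.138% ± 0.0413 and 0.227% ± 0.193, exact permutation test, p = 0.342, adjusted p = 0.540). Without replicate 1 the difference was 0.0104 instead of 0.0883 percentage points (exact permutation test, p = 0.677, adjusted p = 0.753). As a share of interchromosomal junctions, untreated replicates had 30.8%, 42.3% and 62.2% and treated ones 14.0%, 26.1% and 41.0% at the lowest, the median and the highest. These overlapped, with means of 45.1% ± 12.5 and 25.9% ± 9.77 (exact permutation test, p = 0.0173, adjusted p = 0.130). Without treated replicate 1 the difference was -22.2 instead of -19.2 percentage points (exact permutation test, p = 0.00433, adjusted p = 0.0476). This adjustment kept the p-values of the other comparisons with all replicates. The bone marrow comparisons below, at p = 0.00476 by the same test, set its value. Without treated replicate 4 or 5, which hold libraries whose treatment label lacks IAA, the difference was -17.6 or -16.8 (adjusted p = 0.184 and 0.195). Whether it differed from the difference in the control lines was not tested. Other interchromosomal junctions were 0.177% ± 0.0655 of all junctions untreated and 0.592% ± 0.207 with IAA, 3.34-fold more, while Igk junctions were not fewer per junction.

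The CTCFdegron line also differed by side. Untreated replicates had 24 of 54, 24 of 53, 13 of 28, 25 of 58, 40 of 93 and 25 of 69 Igk junctions on the J side. Their J side share was 36.2% at the lowest, 43.8% at the median and 46.4% at the highest. Treated replicates 2 to 6 had 5 of 55, 3 of 50, 7 of 37, 3 of 36 and 5 of 54, or 6.00% to 18.9%, and all 5 lay below every untreated replicate. Treated replicate 1, with 68 of 132 or 51.5%, lay above every untreated one. Over all 6 the means were 43.1% ± 3.60 and 17.2% ± 17.4 (SD, n = 6 each; exact permutation test, p = 0.0152, adjusted p = 0.130). Without treated replicate 1 the difference was -32.8 instead of -25.9 percentage points and the adjusted p was 0.0476. That value, too, was set by the bone marrow comparisons. Without treated replicate 4 or 5 the difference was -26.2 or -24.1 (adjusted p = 0.143 for both).

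Both sides were also set against all junctions in this line. V side junctions were 0.0786% ± 0.0228 of all junctions untreated and 0.161% ± 0.0732 with IAA, and 0.134% ± 0.0317 (n = 5) without treated replicate 1. J side junctions were 0.0598% ± 0.0193 untreated and 0.0657% ± 0.124 with IAA, and 0.0154% ± 0.00766 (n = 5) without that replicate. The J side value with IAA thus rested on replicate 1, at 0.318%, against 0.00854% to 0.0270% in the other 5. These 2 measures were chosen after the data were seen and were not tested. The far stretch of the V side held 12.1% to 33.3% of V side junctions in untreated and 24.0% to 43.3% in treated replicates, which overlapped. The treated J side junctions were 30 at Igkj5, 29 at Igkj4, 16 at Igkj1, 13 at Igkj2 and 1 at Igkj3 of 91, and 68 of the 91 came from replicate 1. The part of replicate 1 was measured only by leaving it out, and no other cause was tested.

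**Figure D5:**
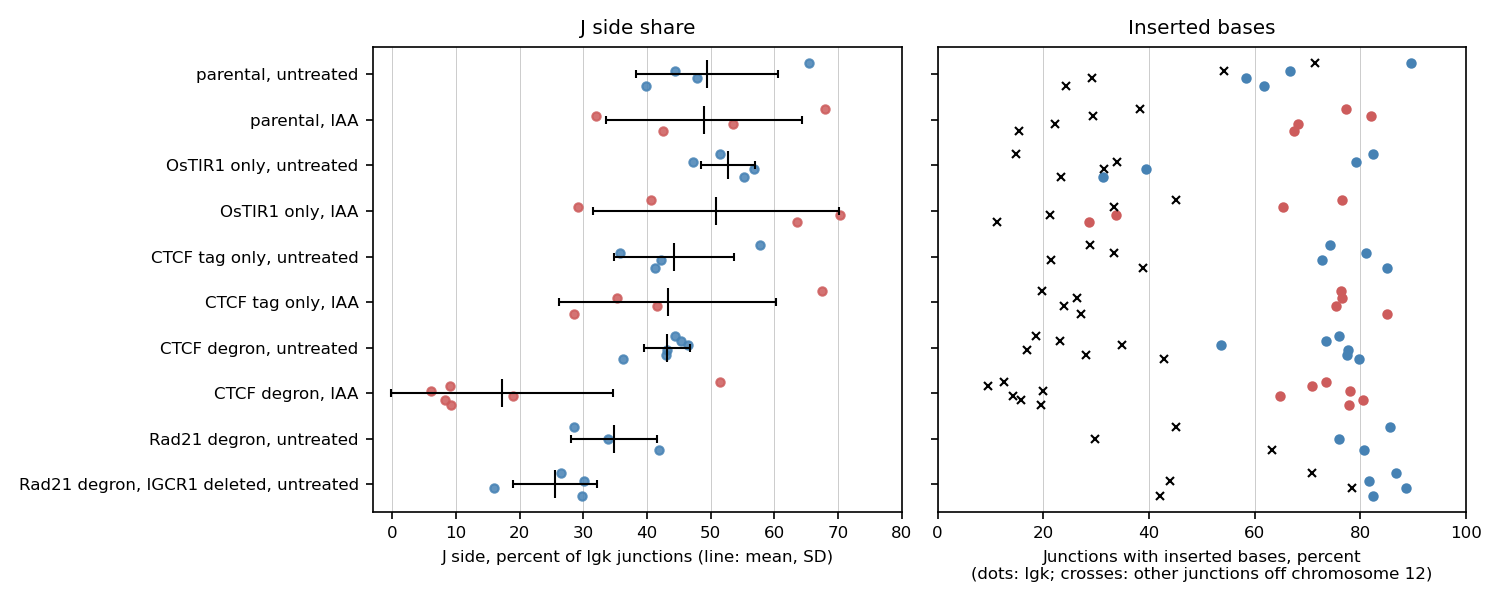
The J side share of Igk junctions in percent with group mean and SD (left), and the share of junctions with inserted bases in percent for Igk (dots) and for other junctions off chromosome 12 (crosses), by replicate of the 10 groups with 50 or more Igk junctions. Of the IAA-treated CTCF degron replicates 5 lie at 6.00% to 18.9% on the left and 1 at 51.5%, and the Igk dot lies right of its cross in 43 of 43 replicates on the right.

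In the control lines the J side share overlapped between treatments. Untreated parental replicates had 65.5%, 44.4%, 47.9% and 39.9% and treated ones 67.9%, 31.9%, 53.5% and 42.5% (means 49.4% ± 11.2 and 48.9% ± 15.4, exact permutation test, p = 1, adjusted p = 1). Untreated OsTIR1 replicates had 51.5%, 47.3%, 56.9% and 55.2% and treated ones 40.6%, 29.1%, 70.3% and 63.6%. The treated values thus lay on both sides of the untreated ones, with replicates 1 and 2 low and replicates 3 and 4, of another run, high (means 52.7% ± 4.28 and 50.9% ± 19.3, exact permutation test, p = 0.886, adjusted p = 0.916). CTCF tag replicates had 57.7%, 35.7%, 42.1% and 41.2% untreated and 67.6%, 35.3%, 41.6% and 28.6% with IAA, with replicate 1 the highest in both (means 44.2% ± 9.45 and 43.2% ± 17.1, exact permutation test, p = 0.886, adjusted p = 0.916). The plus share of Igk junctions lay between a mean of 57.6% in untreated OsTIR1 cells and one of 66.8% in untreated CTCFdegron cells over the untreated lines other than the IGCR1-deleted line. With IAA it was 58.8% ± 8.36 in CTCFdegron cells (exact permutation test, p = 0.123, adjusted p = 0.308). Untreated CTCFdegron and untreated parental cells overlapped in all 4 measures, with adjusted p between 0.454 and 0.741.

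Bone marrow pro-B cells had nearly no Igk junctions. Of 354425 junctions in 6 replicates 3 reads were Igk junctions, all in replicate 4, and they carried 1 junction at the first base of Igkj4, coding facing, with 3 inserted bases. The other 5 replicates, of 30090 to 89909 junctions, had none, and a count of 0 allows a share of up to 0.00334% to 0.00997% there. The mean of 0.00119% ± 0.00291 (SD, n = 6) against 0.148% ± 0.0211 in untreated parental cells was at least 25.6-fold lower with each replicate at no less than 3 counts (exact permutation test, p = 0.00476, the smallest possible for 6 against 4, adjusted p = 0.0714). Of 319 interchromosomal junctions 3 were Igk, and as a share this was at least 8.86-fold lower (exact permutation test, p = 0.00476, adjusted p = 0.0714). Bone marrow and lines differed in source, treatment and sequencing run, so these cannot be told apart, and the floors cover counting error only.

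Other antigen receptor loci give the scale. Over all libraries the Igl locus had 21 junctions, Tcra with Tcrd 88, Tcrg 3 and Tcrb 0, against 4701 at Igk. In bone marrow the order was different, with 30 reads at Tcra with Tcrd and 3 at Igk. The 3 reads carried 1 junction, and how many distinct junctions the 30 held was not counted. Per megabase, Igk junctions were 808-fold denser than other interchromosomal junctions in untreated parental cells, 1051-fold in untreated Rad21degron cells and 1341-fold in the untreated IGCR1-deleted line. In the IAA-treated Rad21degron lines the ratio was 1.89-fold, from 2 junctions, and 21.1-fold with the IGCR1 deletion, from 21 junctions. Bone marrow had 7.58-fold from 3 reads. The density at Igk in the Rad21degron line with IAA was thus near that of other chromosomes, as far as 2 junctions allow.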

How the data were processed

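The deposited full files of 98 libraries have 1 line per junction read; their position, orientation and alignment columns (deposited values of other kinds than counts) were used, and 12 lists of off-target junctions were not. Alignment used Bowtie2 and mm9, per the submitters' processing notes; the version and filters are not given in the sources used here. The hybrid Igh sequence was not used here. Prey sequences were checked against mm9, and segments came from its gene annotation. Numbers of lines per replicate (a and b summed) gave shares in percent. Junctions belonged to a segment within 100 bp; the J side began 1000 bp before Igkj1; J side and orientation were tested only where every replicate had 10 Igk junctions. Tests were two-sided exact permutation tests (Python 3.11.15, numpy 2.4.6, pandas 2.3.3), with Benjamini-Hochberg adjustment over 30. For single replicates left out, pairing and run, only the p-value of the comparison at hand was replaced before this adjustment. Pairing by replicate number was checked over 29 features: only in the OsTIR1 line did every pair correlate above 0.1 (lowest 0.152). There the paired exact sign-flip test, which with 4 pairs cannot go below p = 0.125, could pass no threshold. The mean correlation was 0.215 there, 0.346 in the CTCF tag line and 0.347 between untreated CTCFdegron and parental cells. As the last are different lines, such correlations do not establish pairing. Alternatives were identical junctions once, marked duplicates left out, b libraries only, mean of a and b, another J border, single replicates left out, pairing and run, plus distinct junctions once, chosen after seeing the data. Named were every Jκ, the 10 Vκ and the 10 positions with the highest share averaged over groups. The members and lists were chosen with earlier results of these data known.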

Additional observations from a re-analysis of the deposited data

Results flagged for a closer look

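In 40 sets of 4 to 10 replicates the highest or lowest value was compared with the rest, and 5 values stood apart, some from the same replicate. Chance alone flags about 1 in 20 sets if they are independent and normally spread, but these sets share replicates across measures. Bone marrow replicate 4 was the single one of 6 with Igk junctions, at 0.00712% of all junctions and 5.26% of interchromosomal junctions against 0.0% in the others. With all others at 0.0%, any single nonzero value would have been flagged there. IAA-treated CTCFdegron replicate 1 had an Igk share of 0.616% of all junctions against 0.102% to 0.196% in the other 5. Its J side share of 51.5% lay above 6.00% to 18.9% in the others. Untreated CTCFdegron replicate 6 had a J side share of 36.2%, below 43.0% to 46.4% in the others.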

How the results depend on the processing

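None of the 30 differences had an adjusted p under 0.05. Counting identical junctions once or distinct junctions once changed no direction and no side of that threshold. Leaving out marked duplicates, and moving the J border in the 6 J side comparisons, left every value as it was, so they tested nothing. Paired tests with the replicate number as a block cannot go below p = 0.125 with 4 pairs and so could pass no threshold. In the CTCF tag line both Igk shares were lower with IAA in 4 of 4 same-numbered pairs, and in the parental line in 3 of 4. For the CTCFdegron line the paired difference (IAA minus untreated) in the Igk share of interchromosomal junctions was -19.2 percentage points (6 of 6 lower, p = 0.03125, adjusted p = 0.156) and in the J side share -25.9 (adjusted p = 0.234), exact sign-flip tests. Whether equal replicate numbers mean paired samples is not known for any line, OsTIR1 included. In the Rad21degron line each same-numbered pair also had its own sequencing run. In the OsTIR1 line replicates 1 and 2 of both treatments shared 1 run, and replicates 3 and 4 another.

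Directions turned in the following, and the cause was not tested. In the J side share, IAA minus untreated, the parental line had -0.486 percentage points, 1.23 as the mean of a and b libraries and 4.07 within the run that holds both treatments; the OsTIR1 line had -1.80, 0.569 with b libraries only and 10.9 within 1 of its 2 runs. The plus share of the parental line was 2.05 and within that run -1.10. Leaving out single replicates gave ranges of -6.81 to 5.18 (parental), -8.25 to 5.47 (OsTIR1) and -9.05 to 3.94 (CTCF tag) for the J side share. For the Igk share of interchromosomal junctions it gave -6.63 to 0.460 in the parental line and -0.174 to 10.2 for the IGCR1-deleted against the other untreated Rad21degron line. In the CTCFdegron line it gave -22.2 to -15.8 for that share and -32.8 to -23.7 for the J side share. Without treated replicate 1 both had an adjusted p of 0.0476, and without any other replicate none passed. The other comparisons kept all replicates in that adjustment, and the bone marrow tests among them set its value. Depth limits the Rad21degron lines with IAA, where 2 and 21 Igk reads carry every statement, and bone marrow, with 3.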
